A study of Mus musculus with 48 samples.

Results

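Ribosome occupancy was compared between Nrde2 knockout (Nrde2-KO) and wild-type (WT) mouse embryonic stem cells (mESCs) by ribosome profiling (Ribo-seq), with 2 libraries per group. The genes described are those with a mean of at least 1 CPM (reads of a gene scaled to the size of its library) over the 4 libraries, which kept 12302 of the 55335 genes listed, and 25278 of those listed were above 0 in at least 1 library. The gene with the lowest mean inside this limit, AC115117.1, had 1 CPM, and the highest outside it, Gm19426, had 0.9989 CPM. Of the 12302 genes, 485 had a mean under 1 CPM in WT and 149 had one under 1 CPM in Nrde2-KO, so that these entered the comparison through the other group.

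The cells were male mESCs of hybrid 129-C57BL/6 background, grown in medium with serum, LIF and the 2i inhibitors. The conditional knockout line, derived from a single clone, expresses from Rosa26 a Cre recombinase that 4-hydroxytamoxifen (4OHT) activates. Nrde2-KO cells were given 100 nM 4OHT for 4 days to delete Nrde2, and WT cells, which the labels describe by that genotype alone, were not treated, so that exposure to 4OHT, Cre activity and the loss of Nrde2 cannot be told apart in this comparison. The 4 days are those of the labels; for Ribo-seq, the study's methods give 3 days before the cells were seeded and grown overnight. No label says that the 2 libraries of a group came from separate cultures, so p-values measure only the spread between these libraries, which may be technical.

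NRDE2 is a nuclear protein that binds pre-mRNA and, together with its partner CCDC174, acts on 5′ splice sites (5′SSs) that pair poorly with the U1 snRNP. Its other main partner is MTREX, the RNA helicase that feeds the nuclear exosome. In Ribo-seq, a nuclease digests the mRNA that ribosomes do not cover, and the remaining footprints are sequenced, so that the footprints of a gene follow both the amount of its mRNA and the number of ribosomes on each mRNA. A ribosome footprint says that an mRNA was being read, whereas RNA-seq also counts transcripts that are retained in the nucleus or are about to be degraded.

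Between 3475051 and 5035940 reads per library fell in genes, which was 61.4 to 66.8% of the total that the CPM refer to, and a mean of 1 CPM stood for 5.66 to 8.15 reads. Across genes, log2 values correlated with r = 0.987 between the 2 WT libraries, with r = 0.984 between the 2 Nrde2-KO libraries and with r between 0.951 and 0.952 across groups. Protein-coding genes of the nuclear genome held 70.6 to 74.7% of the reads in genes in Ribo-seq and 93.2 to 94.5% in the RNA-seq libraries of the same genotypes. Genes of the mitochondrial genome held 8.34 to 9.75% of the Ribo-seq reads. Fragments were cut from a gel by size with no isolation of monosomes, and reads of short structured RNAs therefore need not be ribosome footprints. The most abundant gene was Gm42418, annotated as a lncRNA locus, with 86860 and 88336 normalized CPM in WT and 78479 and 63623 in Nrde2-KO. Its reads need not be ribosome footprints either. Long noncoding genes held 11.8 to 14.1% of the reads in genes in Ribo-seq and 2.16 to 3.1% in RNA-seq.

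Nrde2 itself was the first gene examined, since it checks the labels. It had 12.3 and 14.3 normalized CPM in the WT libraries and 2.34 and 3.25 in the Nrde2-KO libraries. All WT values were above all Nrde2-KO values, and ribosome occupancy was 4.48-fold lower (log2 fold change −2.16 ± 0.22 (SE), n = 2 per group, limma adjusted p = 2.53e-07). In RNA-seq the Nrde2 transcript fell by 1.07 on the log2 scale, and the Ribo-seq change was lower than the RNA-seq change by a further 1.10 (adjusted p = 0.00397 in the interaction fit). Ccdc174 had 3.65 and 4.14 CPM in WT and 4.86 and 5.07 in Nrde2-KO (adjusted p = 0.297). Mtrex had 85.7 and 85.0 CPM in WT and 64.7 and 71.7 in Nrde2-KO (log2 fold change −0.32, adjusted p = 0.00486). This small decrease was no longer past an adjusted p of 0.05 without Nrde2-KO library 1, where it was −0.24, or with DESeq2, where it was −0.31.

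Cdk2, Dnmt1 and Tti1, whose splicing depends on NRDE2 in the study, were examined next. They were taken because the study describes them by their Ribo-seq signal or by reporters. For Cdk2 and Dnmt1 it had already reported a lower Ribo-seq signal in Nrde2-KO, so their decrease was known in advance. Cdk2 encodes a kinase of the G1/S transition, Dnmt1 the maintenance DNA methyltransferase, and Tti1 a subunit of the complex that stabilizes PI3K-related kinases. Their 5′SSs are shown as read from the GRCm38 genome (mm10), on the transcribed strand, with the last 3 bases of the exon followed by the first 6 of the intron. Capitals mark the bases that match the consensus to which U1 snRNA pairs (CAG at the exon end and GTAAGT at the intron start).
Cdk2 intron 1 (chr10:128704004-128704711, minus strand): CAcGTgAGT
Cdk2 intron 4 (chr10:128701445-128702412, minus strand): gAGGTAAGT
Cdk2 intron 5 (chr10:128699676-128701342, minus strand): atGGTAtGg
Dnmt1 intron 10 (chr9:20930166-20932114, minus strand): aAGGcAAag
Dnmt1 intron 29 (chr9:20912657-20913896, minus strand): gAGGTggag
Tti1 intron 5 (chr2:157993559-157995380, minus strand): aAGGTActg
Cdk2 intron 1, the target intron in the study, had 7 matches of 9 by this count, and Cdk2 intron 4 is shown for contrast, with 8. Tti1 intron 5, also a target in the study, had 5 matches, the fewest in its gene. Cdk2 intron 5 is shown because it had the fewest in Cdk2, also 5. Dnmt1 intron 10, which is a binding target of NRDE2 in the study, also had 5 matches and begins with GC, and Dnmt1 intron 29 had 4, the fewest of its 38 introns. Over the GT introns of all coding genes tested, 38.18% had 6 matches, 14.71% had 5 and 1.3% had 4.

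Ribosome occupancy of all 3 genes fell. Cdk2 had 63.0 and 67.9 normalized CPM in WT and 26.4 and 25.6 in Nrde2-KO, a 2.499-fold decrease (log2 fold change −1.32 ± 0.10, adjusted p = 2.97e-09). Dnmt1 had 193 and 224 CPM in WT and 101 and 102 in Nrde2-KO (−1.03 ± 0.08, adjusted p = 9.12e-09). Tti1 had 31.6 and 31.2 CPM in WT and 16.5 and 14.4 in Nrde2-KO (−1.01 ± 0.12, adjusted p = 1.73e-06). No WT value of these genes overlapped with a Nrde2-KO value. Changes of the transcripts were less alike, since in RNA-seq the log2 fold change was −0.63 for Cdk2, −0.68 for Dnmt1 and −1.46 for Tti1. The Ribo-seq change was therefore lower than the RNA-seq change for Cdk2 by 0.69 (−0.69, adjusted p = 0.00121) and for Dnmt1 by 0.35 (−0.35, adjusted p = 0.0369), but it was higher for Tti1 by 0.45 (adjusted p = 0.0419).

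**Figure D1:**
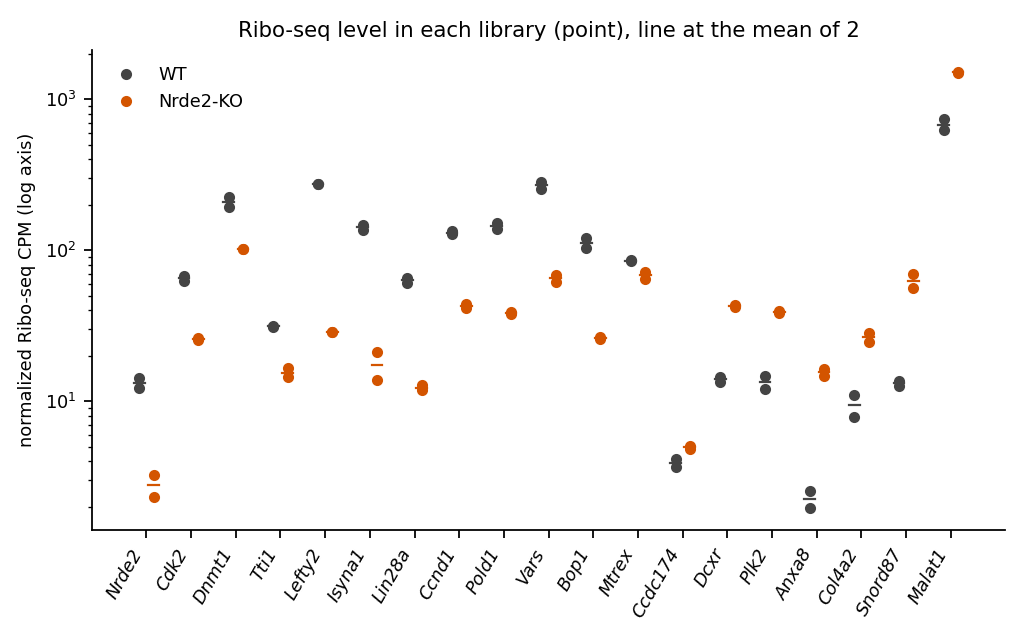
Normalized Ribo-seq CPM (log axis) of named genes in each of the 2 WT (grey) and 2 Nrde2-KO (orange) libraries, with a line at the mean of each group. Lefty2 sat at 275 and 276 in WT and at 29.0 and 28.8 in Nrde2-KO, whereas the 4 values of Ccdc174 lay between 3.65 and 5.07.

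Genes were called if they changed more than 2-fold with an adjusted p below 0.01 (Benjamini-Hochberg), and 868 of the 12302 genes (7.06%) passed. Of these, 487 were called higher (3.96%) and 381 lower (3.10%) in Nrde2-KO. Among the genes called higher, 93 had a mean under 1 CPM in WT, and among those called lower 24 had a mean under 1 CPM in Nrde2-KO. With an adjusted p below 0.05 and no limit on the fold change, 4992 genes passed (40.6%), of which 2284 rose (18.6%) and 2708 fell (22.0%). In the text below, a gene is said to have risen or fallen if it passed this second threshold. The median absolute log2 fold change was 0.346, against a median absolute difference of 0.151 between the 2 WT libraries and of 0.154 between the 2 Nrde2-KO libraries. The balance of directions depends on the scaling: with the CPM as deposited, which moved the median change of all genes from −0.01 to 0.14, 774 genes were called higher and 257 lower.

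**Figure D2:**
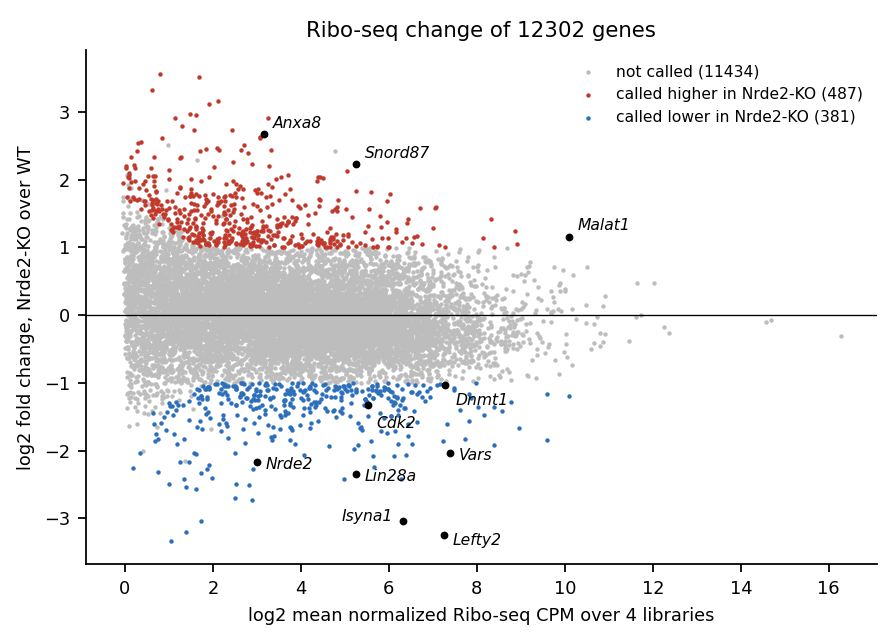
Log2 fold change of Ribo-seq (Nrde2-KO over WT) against the log2 mean normalized CPM over the 4 libraries for the 12302 genes. The 487 genes called higher (red) lay mostly at low levels, and the 381 called lower (blue) extended to genes such as Vars and Lefty2 with means above 100 CPM.

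The 360 coding genes called lower had a median of 22.27 CPM in WT, beside 14.51 CPM for all coding genes tested. The 414 coding genes called higher had a median of 2.71 CPM in WT and of 7.92 CPM in Nrde2-KO. When all coding genes were split into 5 bins by WT level, the highest bin had a median log2 fold change of −0.23, and 51.0% of it fell. The lowest bin had a median of 0.32, and 2.59% of it fell. RNA-seq medians of the same bins were −0.19 and 0.12. WT level is part of the fold change, so this order is a description only.

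The largest decreases among genes of at least 5 normalized CPM included those of both Lefty genes. Lefty2, a secreted inhibitor of Nodal signaling, had 275 and 276 CPM in WT and 29.0 and 28.8 in Nrde2-KO, a 9.47-fold decrease (log2 fold change −3.24 ± 0.08, adjusted p = 3.56e-16). Its neighbor Lefty1, with the same role, had 12.5 and 13.3 CPM in WT and 1.44 and 2.08 in Nrde2-KO (−2.73 ± 0.25, adjusted p = 4.07e-08). Nodal itself, the ligand that both proteins inhibit, went the other way, from 167 and 182 CPM to 469 and 459 (1.41 ± 0.07, adjusted p = 3.12e-11). For none of these genes did the groups overlap. In RNA-seq the log2 fold change was −1.85 for Lefty2, −2.54 for Lefty1 and 0.53 for Nodal. The footprint change thus exceeded the transcript change for Lefty2 (difference −1.39, adjusted p = 0.00159) and for Nodal (difference 0.88, adjusted p = 0.000143), which was not shown for Lefty1 (difference −0.20, adjusted p = 0.709).

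Isyna1, which makes inositol phosphate from glucose phosphate, had 137 and 147 CPM in WT and 21.2 and 13.8 in Nrde2-KO (−3.03 ± 0.14, adjusted p = 3.65e-12). Itpr3, a calcium channel of the endoplasmic reticulum that inositol trisphosphate opens, had 125 and 136 CPM in WT and 24.8 and 23.7 in Nrde2-KO (−2.41 ± 0.09, adjusted p = 5.62e-13). Lin28a, an RNA-binding protein of stem cells that blocks let-7 maturation, had 66.0 and 60.7 CPM in WT and 12.8 and 11.8 in Nrde2-KO (−2.34 ± 0.11, adjusted p = 6.42e-12). The WT libraries were above the Nrde2-KO libraries by at least 5-fold on average in each case. For Lin28a, the transcript fell by only 0.97 on the log2 scale in RNA-seq, and the difference of −1.37 between the assays was called (adjusted p = 5.54e-05). The largest decreases also included Trh, from 53.9 and 52.9 CPM to 10.8 and 8.85, Wdr90, from 11.2 and 12.9 CPM to 2.34 and 1.56, and Enox1, from 8.09 and 11.9 CPM to 0.90 and 1.82. Among called genes of that level, Enox1 was the one whose footprints fell furthest below its transcript, with a log2 fold change of −0.57 in RNA-seq (adjusted p = 0.0998) and of −2.71 in Ribo-seq (difference −2.13, adjusted p = 0.00623).

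Among the coding genes called lower, those with the most footprints in WT were picked by their level after the values had been seen, and 6 of them are described here. Fasn, the fatty acid synthase, had 1128 and 1297 CPM in WT and 347 and 326 in Nrde2-KO (−1.85, adjusted p = 3.65e-12). Cad, which starts pyrimidine synthesis, had 485 and 572 CPM in WT and 141 and 138 in Nrde2-KO (−1.92, adjusted p = 2.18e-12). Pfas, an enzyme of purine synthesis, had 323 and 339 CPM in WT and 92.8 and 93.7 in Nrde2-KO (−1.82, adjusted p = 1.38e-12). Values of the 2 libraries of a group lay close together and the groups did not overlap in these 3 genes. Rack1, a protein of the small ribosomal subunit, fell from 1445 and 1624 CPM to 691 and 646 (−1.20), the ubiquitin ligase Nedd4 from 547 and 564 to 202 and 217 (−1.41), and the creatine kinase Ckb from 408 and 436 to 164 and 141 (−1.47). RNA-seq changes had the same sign in all 6, between −1.31 for Fasn and −0.82 for Nedd4.

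The genes with the largest increases had few footprints in WT. Layn, a membrane receptor for hyaluronan, had 1.04 and 0.40 CPM in WT and 8.45 and 7.42 in Nrde2-KO (3.15 ± 0.35, adjusted p = 6.68e-07). Cd4 had 0.261 and 1.07 CPM in WT and 6.83 and 6.90 in Nrde2-KO (3.12 ± 0.40, adjusted p = 3.42e-06). Anxa8, an annexin, had 1.96 and 2.54 CPM in WT and 16.4 and 14.7 in Nrde2-KO (2.67 ± 0.22, adjusted p = 1.31e-08). Both Nrde2-KO libraries were above both WT libraries in each of these genes. Layn and Cd4 had a mean under 1 CPM in WT and passed the limit through Nrde2-KO, the group in which they are high. The transcript of Anxa8 rose as much as its footprints did, with an RNA-seq log2 fold change of 2.98, while that of Layn rose by 1.14 and differed from its footprints by 2.01 (adjusted p = 0.0078). Thsd7a and Lgals4, also among the largest increases, rested on 1 library: they had 11.9 and 11.1 CPM in Nrde2-KO library 1 but 0.781 and 0.781 in library 2, and without library 1 neither passed an adjusted p of 0.05 (log2 fold changes 1.75 and 1.23).

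Among the coding genes called higher, those with the most footprints in Nrde2-KO were again picked by level after the values had been seen. They were thus chosen by the group in which they are high, and they included the following 7. The water channel Aqp3 had 274 and 284 CPM in WT and 700 and 620 in Nrde2-KO (1.24, adjusted p = 3.38e-10). Igf2r, the receptor that carries lysosomal enzymes and IGF2, had 299 and 334 CPM in WT and 620 and 687 in Nrde2-KO (1.05, adjusted p = 5.83e-09). The junction protein Jam2 had 229 and 216 CPM in WT and 427 and 470 in Nrde2-KO (1.01, adjusted p = 4.56e-09). All Nrde2-KO values of these 3 genes lay above all WT values. The lysosomal protease Ctsd went from 104 and 102 CPM to 202 and 212, the lysosomal galactosidase Glb1 from 57.9 and 60.2 to 119 and 130, the Golgi mannosidase Man2a1 from 72.5 and 67.4 to 150 and 139, and the heparan sulfate proteoglycan Sdc4 from 72.2 and 62.1 to 223 and 183. For Jam2, Man2a1 and Glb1 the RNA-seq change did not pass an adjusted p of 0.05 (0.14, 0.08 and 0.07 on the log2 scale), and the footprint change was higher by 0.87, 0.96 and 1.00 (adjusted p = 0.000413, 0.000201 and 0.000326).

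Gene lists of 31 pathways and 7 sets of cell type markers were then drawn up from general knowledge. They were described by their counts and their medians beside those of all genes (median −0.01, 18.6% rose and 22.0% fell). Lists were not matched to all genes by level. In the highest of the 5 bins of coding genes by WT level, 51.0% fell (median −0.23). The part of level in the counts of the lists was not tested. The genes that charge tRNAs with amino acids had the lowest median among the lists of nuclear coding genes: 18 of 19 cytosolic aminoacyl-tRNA synthetases fell and 0 rose (median −0.53). Vars had 255 and 282 CPM in WT and 68.3 and 61.9 in Nrde2-KO (−2.04, adjusted p = 1.38e-12). Qars had 333 and 349 CPM in WT and 115 and 114 in Nrde2-KO (−1.57, adjusted p = 6.4e-12). The median RNA-seq change of the list was −0.58, and for 2 of 19 genes the footprint change was higher than the transcript change at an adjusted p below 0.05, for 0 lower.

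Ribosome biogenesis factors fell in 36 of 50 cases and rose in 0 (median −0.43). Bop1, which is needed to process the precursor of the large subunit rRNAs, had 103 and 121 CPM in WT and 25.7 and 26.7 in Nrde2-KO (−2.08, adjusted p = 5.44e-12). The rRNA acetyltransferase Nat10 had 106 and 115 CPM in WT and 45.9 and 46.7 in Nrde2-KO (−1.25, adjusted p = 1.02e-09). The groups did not overlap in either gene. Here the footprint change was lower than the transcript change in 20 of 50 genes and higher in 1, and the RNA-seq median was −0.19. Of the translation initiation factors, 18 of 32 fell and 0 rose (median −0.25), and of the elongation factors and other mRNAs of the TOP class, 10 of 20 fell and 0 rose (median −0.23). Eef2, the translocase of elongation, had 1370 and 1484 CPM in WT and 878 and 829 in Nrde2-KO (−0.74, adjusted p = 6.33e-07), with an RNA-seq change of −0.13 and a difference of −0.61 (adjusted p = 0.00508). In contrast to these lists, the 79 proteins of the cytosolic ribosome had a median of 0.03, with 10 genes that rose and 12 that fell.

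Genes that copy and repair DNA fell as a group in number. Of the 42 replication and licensing genes, 32 fell and 1 rose (median −0.45; RNA-seq −0.29), and the footprint change was lower than the transcript change in 8 and higher in 0. Pold1, the catalytic subunit of DNA polymerase delta, had 137 and 152 CPM in WT and 39.2 and 37.6 in Nrde2-KO (−1.91, adjusted p = 4.41e-12). Mcm5, a subunit of the replicative helicase, had 504 and 540 CPM in WT and 299 and 305 in Nrde2-KO (−0.79, adjusted p = 8.03e-08). For Mcm5 the transcript changed by −0.19 (adjusted p = 0.0953), and the footprints lay lower by 0.60 (difference −0.60, adjusted p = 0.00312). Of 33 genes of homologous recombination and the Fanconi pathway, 15 fell and 0 rose (median −0.31). Of 39 cyclins, cyclin-dependent kinases and their regulators, 20 fell and 2 rose (median −0.30). Ccnd1, which encodes cyclin D1, had 134 and 128 CPM in WT and 44.4 and 41.5 in Nrde2-KO (−1.603, adjusted p = 2.94e-11), and its difference from the RNA-seq change of −0.49 was called (−1.11, adjusted p = 0.000112). Targets of p53 went the other way: 17 of 27 rose and 1 fell (median 0.67; RNA-seq 0.52). Phlda3, a p53-induced inhibitor of Akt, had 23.9 and 20.4 CPM in WT and 43.7 and 45.8 in Nrde2-KO (1.01, adjusted p = 4.97e-07), and Dcxr had 13.4 and 14.5 CPM in WT and 42.4 and 43.5 in Nrde2-KO (1.602, adjusted p = 2.18e-09).

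Proteins that act on RNA and chromatin also fell more often than they rose. This held for 22 of 29 hnRNPs (median −0.39), 9 of 18 SR proteins (−0.36), 22 of 31 chromatin repressors (−0.41) and 10 of 23 subunits of the BAF remodeler (−0.29), and in each of these lists 0 genes rose. Srsf1 had 268 and 246 CPM in WT and 163 and 156 in Nrde2-KO (−0.68, adjusted p = 6.69e-07), with an RNA-seq change of −0.16 (adjusted p = 0.0958). Among the proteins of the U1 snRNP and the Sm ring and early factors of the 5′SS, 9 of 21 fell, Nrde2 included, and 2 rose (median −0.17). Prpf39, a U1-associated protein, had 13.7 and 14.9 CPM in WT and 7.91 and 6.12 in Nrde2-KO (−1.01, adjusted p = 0.000125), while its transcript changed by 0.09 (adjusted p = 0.44). Of the nuclear exosome and its adaptors 9 of 21 fell and 1 rose (−0.16), and of the TTT complex and the kinases that it stabilizes 6 of 13 fell and 0 rose (−0.17). Atm, one of these kinases, had 53.6 and 51.9 CPM in WT and 31.6 and 30.7 in Nrde2-KO (−0.76, adjusted p = 3.42e-06), with an RNA-seq change of −0.01 and a difference of −0.75 (adjusted p = 0.00102).

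In some pathways the transcripts were lower by more than the footprints. Of 24 genes of cholesterol synthesis and uptake, 17 fell in Ribo-seq (median −0.52) and 23 in RNA-seq (median −1.02, where 26.5% of all genes fell), and the footprint change was higher than the transcript change in 16 and lower in 0. Cyp51, a demethylase of lanosterol, had 87.9 and 89.6 CPM in WT and 49.99 and 44.5 in Nrde2-KO (−0.91), with −1.75 in RNA-seq and a difference of 0.84 (adjusted p = 0.000598). The same pattern was seen in histones (32 of 51 fell; median −0.39, RNA-seq −0.68, difference higher in 15 and lower in 0), in proteins of the mitochondrial ribosome (17 fell and 12 rose of 75; 0.02, RNA-seq −0.30, higher in 21 and lower in 0), in chaperones (14 fell and 6 rose of 34; −0.03, RNA-seq −0.28, higher in 13 and lower in 0) and in ATF4 targets (9 fell and 3 rose of 25; −0.16, RNA-seq −0.55, higher in 10 and lower in 0). Over all genes in both assays, the Ribo-seq change differed from the RNA-seq change for 2339 of 11532 at an adjusted p below 0.05 (20.3%). It was higher for 1442 (12.5%) and lower for 897 (7.78%). Among coding genes in the shortest of 5 bins of coding length (up to 768 bases), it was higher for 23.8% and lower for 2.2% (median difference 0.23). The lists were not matched to all genes by coding length, and its part in these counts was not tested. Sdf2l1, a cofactor of the ER chaperone BiP, had 40.7 and 40.4 CPM in WT and 65.3 and 63.1 in Nrde2-KO (0.66, adjusted p = 8.01e-06), while its RNA-seq change was −0.27. Mrps28, a mitochondrial ribosomal protein, had 29.6 and 30.8 CPM in WT and 43.3 and 49.4 in Nrde2-KO (0.61, adjusted p = 8.5e-05), with an RNA-seq change of −0.27. Of the 7 genes of the mitochondrial genome that encode proteins and passed the limit, 5 fell (median −0.59), but WT library 1 stood above the others, as in mt-Nd1 with 1565 and 1037 CPM in WT and 917 and 750 in Nrde2-KO, and DESeq2 did not call the decrease of mt-Nd1 (−0.63).

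Of the exon junction complex and nonsense-mediated decay factors 5 of 25 fell and 4 rose (−0.12), beside 22.0% and 18.6% of all genes. Proteasome subunits fell in 11 of 32 cases and rose in 4 (median −0.07), targets of YAP and cytoskeleton genes fell in 11 of 31 and rose in 7 (−0.12), and genes of DNA methylation fell in 8 of 19 and rose in 3 (−0.21). Dnmt3l, a cofactor of the de novo DNA methyltransferases, had 56.9 and 61.9 CPM in WT and 34.2 and 33.4 in Nrde2-KO (−0.81, adjusted p = 1.29e-06), while its RNA-seq change was 0.17 (difference −0.98, adjusted p = 0.000246). Listed host genes of small nucleolar RNAs rose in 1 of 15 cases and fell in 1 (−0.002). This list is not the set of all hosts. The small nucleolar and Cajal body RNAs tested here lay in 94 host genes by annotation, of which 8 rose and 35 fell (median −0.18). Of 39 genes listed for the 2-cell-like state, only 2 passed the limit of 1 CPM in Ribo-seq. Eif1a fell, from 44.2 and 45.2 CPM in WT to 28.6 and 28.9 in Nrde2-KO. Zfp809 had 12.9 and 13.7 CPM in WT and 16.7 and 16.9 in Nrde2-KO (adjusted p = 0.0662). These genes are too few to say how the state changed in ribosome occupancy, and whether either of them marks it was not tested. The study reports up-regulation of genes of this state in the knockout by RNA-seq. Nuclear lncRNAs were detected in Ribo-seq as well, with 12 of 17 listed above the limit, of which 2 rose and 4 fell; the 12 include the coding gene Lars2, which did not pass the test (−0.12, adjusted p = 0.373). Malat1, a lncRNA of nuclear speckles, had 734 and 621 CPM in WT and 1501 and 1514 in Nrde2-KO (1.16, adjusted p = 4.23e-09), and its RNA-seq change was 0.49.

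**Figure D3:**
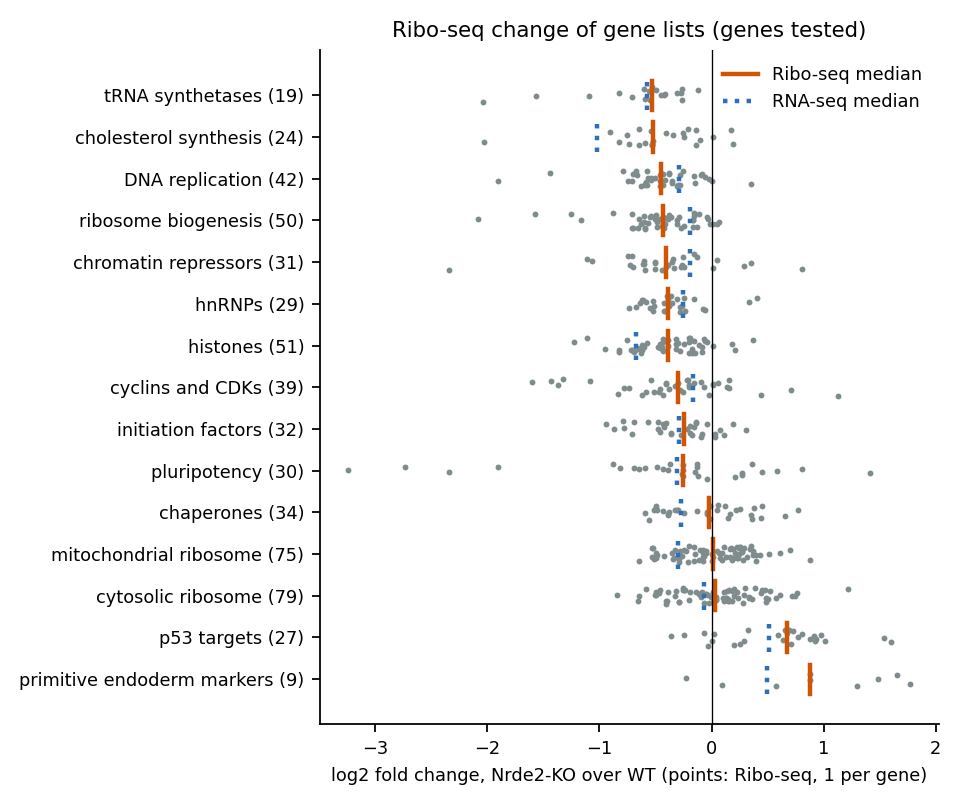
Ribo-seq log2 fold change (Nrde2-KO over WT) of each gene tested (points) in 15 lists, with the median of Ribo-seq (orange line) and of RNA-seq (blue dotted line). The tRNA synthetases lay below 0 in every case, with a median of −0.53, p53 targets had a median of 0.67, and in cholesterol synthesis the RNA-seq median (−1.02) lay below that of Ribo-seq (−0.52).

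The libraries were those of mESCs by their markers: all 12 stem cell markers passed the limit, with a summed level of 3424 and 3461 CPM in WT and 2756 and 2671 in Nrde2-KO. Of these, 8 fell and 1 rose. Utf1, a chromatin protein of pluripotent cells, had 112 and 122 CPM in WT and 30.9 and 31.0 in Nrde2-KO (−1.91, adjusted p = 5.68e-12), and Tfcp2l1 had 766 and 707 in WT and 414 and 388 in Nrde2-KO (−0.88, adjusted p = 3.31e-08). In the wider list of 30 pluripotency genes 17 fell and 5 rose (median −0.26). Of 16 primitive endoderm markers 9 passed the limit, and 7 of these rose and 1 fell (median 0.88), with a summed level of 1453 and 1521 CPM in WT and 1641 and 1595 in Nrde2-KO and with Ttr at 0. Col4a2, a basement membrane collagen, had 7.83 and 11.1 CPM in WT and 28.2 and 24.9 in Nrde2-KO (1.48, adjusted p = 4.15e-07), and the transcription factor Gata6 had 0.652 and 0.40 in WT and 2.697 and 2.08 in Nrde2-KO (1.77, adjusted p = 0.00286). Gata6 had a mean under 1 CPM in WT and passed the limit through Nrde2-KO, the group in which it is high, so its increase is a description only. Bulk libraries cannot tell a change in the number of cells of a type from a change of RNA per cell.

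Markers of other cell types were summed in the same way, and their part in the results was not tested. Of 10 fibroblast markers 4 passed the limit and 3 rose (summed level 84.3 and 85.7 CPM in WT and 132.9 and 143.4 in Nrde2-KO, with Dcn and Twist2 at 0), mainly through Fbln1 with 69.0 and 71.9 CPM in WT and 97.6 and 110 in Nrde2-KO. Of 11 trophectoderm markers 6 passed, 2 rose and 2 fell (52.1 and 53.3 CPM in WT, 46.2 and 45.3 in Nrde2-KO, Tpbpa at 0), and of 10 markers of the primitive streak and mesoderm 3 passed and 1 rose (14.9 and 14.7 CPM in WT, 22.3 and 27.8 in Nrde2-KO, Mesp1 at 0). Neural markers (4 of 9 passed; 1 rose and 1 fell) summed to 72.7 and 82.8 CPM in WT and to 149.8 and 54.0 in Nrde2-KO, with Neurog2 at 0, and primed epiblast markers (8 of 10 passed; 2 rose and 3 fell) to 138.0 and 150.6 CPM in WT and 215.2 and 126.5 in Nrde2-KO, with Fgf5 at 0. Both of these sums were high in Nrde2-KO library 1 alone because of Otx2, which had 4.04 and 2.40 CPM in WT, 100 in Nrde2-KO library 1 and 2.99 in library 2 (2.42, adjusted p = 0.024). Without Nrde2-KO library 1 the change of Otx2 was −0.05. Of 8880 coding genes with at least 5 normalized CPM in the higher group, 5 differed by more than 4-fold between the Nrde2-KO libraries (Otx2, Thsd7a, Lgals4 and Srek1ip1, higher in library 1, and Pax7, higher in library 2) and 0 between the WT libraries, and 2 of the 5, Thsd7a and Lgals4, were among the genes called.

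To relate ribosome occupancy to transcript levels, the RNA-seq libraries of Nrde2-KO and WT mESCs (2 each, with WT cells that carry the conditional allele and were not treated) were analysed on the same scale. These are other libraries, and nothing states that they came from the same cultures. In RNA-seq 327 of 13135 genes (2.49%) were called higher and 330 (2.51%) lower. Of the 207 called higher that were measured in Ribo-seq, 148 rose in Ribo-seq (71.5%, against 18.6% of all genes), 0 fell, and the median Ribo-seq change was 1.12 beside 1.27 in RNA-seq. Of the 284 called lower, 233 fell in Ribo-seq (82.0%, against 22.0%), 4 rose, and the medians were −1.01 and −1.18. Genes called in the same direction in both assays numbered 99 for higher (25.1% of the 394 Ribo-seq calls and 47.8% of the 207 RNA-seq calls among genes measured in both) and 139 for lower (38.3% of 363 and 48.9% of 284), and 0 genes were called in opposite directions. Across the 11532 genes in both assays the 2 log2 fold changes correlated with r = 0.613 (a description across genes, which are not independent replicates).

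The difference between the assays was tested for each gene with an interaction term, and 196 of 11532 genes (1.70%) were called at the same thresholds. For 158 of these (1.37%) the Ribo-seq change was higher than the RNA-seq change and for 38 (0.330%) it was lower. Of the 158, 143 were protein-coding and 12 were small nucleolar or Cajal body RNAs, whose reads need not be footprints. Genes on the lower side included Ppox, an enzyme of heme synthesis, which had 9.66 and 10.1 CPM in WT and 2.697 and 3.12 in Nrde2-KO (−1.69, adjusted p = 5.63e-06) with an RNA-seq change of −0.12. Slc39a14, a zinc and manganese importer, had 41.8 and 44.2 CPM in WT and 27.2 and 29.7 in Nrde2-KO (−0.59, adjusted p = 0.000116), while its transcript rose (0.89, adjusted p = 0.000105). For Slc39a14 the assays thus moved in opposite directions, with a difference of −1.48 (adjusted p = 9.77e-05). On the higher side the largest differences included those of 3 small nucleolar RNAs, which are described next. The number of calls was 118 without WT library 1 of the RNA-seq. With the second RNA-seq experiment of the study in place of the first, 158 genes were called, of which 87 were among the 196.

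**Figure D4:**
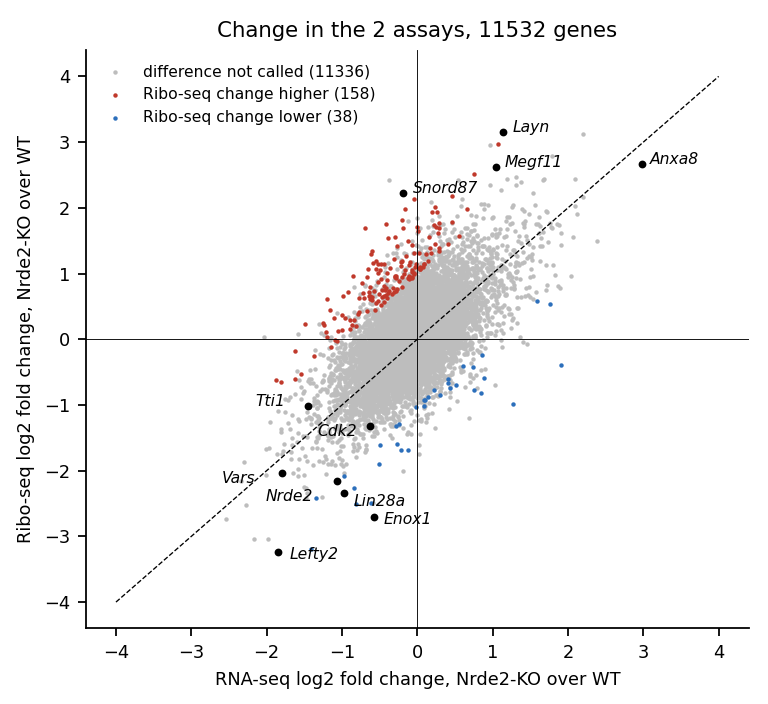
Log2 fold change (Nrde2-KO over WT) of Ribo-seq against that of RNA-seq for the 11532 genes in both assays, with the line of equal change (dashed). Red points are the 158 genes with a higher and blue points the 38 genes with a lower Ribo-seq than RNA-seq change. Snord87 rose by 2.23 in Ribo-seq at −0.18 in RNA-seq, and Enox1 lay at −2.71 against −0.57.

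Small nucleolar RNAs (snoRNAs) guide the chemical modification of ribosomal RNA in the nucleolus and are not translated; most are cut from introns of host genes, and those of the box C/D class are bounded by the short motifs that name them. Their reads rose in Nrde2-KO. The 3 with the largest differences between the assays are shown 5′ to 3′ as read from GRCm38 (mm10) at their annotated positions, in lower case with the first TGATGA (the common form of box C) and the last CTGA (box D) in capitals where present.
Snord87 (chr1:9942463-9942549, minus strand): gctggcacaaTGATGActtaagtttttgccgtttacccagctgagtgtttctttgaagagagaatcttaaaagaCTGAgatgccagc
Snord34 (chr7:45126601-45126670, minus strand): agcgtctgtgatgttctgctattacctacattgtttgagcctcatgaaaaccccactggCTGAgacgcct
Snord49a (chr11:62603450-62603521, plus strand): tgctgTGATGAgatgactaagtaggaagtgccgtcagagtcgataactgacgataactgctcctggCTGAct
Both motifs were found on the transcribed strand of 27 of the 37 Snord genes tested (73.0%), of 0 of the 13 Snora genes and of 5 of the 8 Scarna genes. CTGA is short and also occurs elsewhere in these sequences.

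Snord87 had 13.7 and 12.7 CPM in WT and 55.9 and 70.1 in Nrde2-KO (2.23 ± 0.12, adjusted p = 3.44e-11), with an RNA-seq change of −0.18 (difference 2.41, adjusted p = 5.54e-05). Snord34 had 11.6 and 12.5 CPM in WT and 48.4 and 59.6 in Nrde2-KO (2.13 ± 0.12, adjusted p = 9.01e-11). Snord49a had 22.2 and 20.4 CPM in WT and 68.7 and 83.0 in Nrde2-KO (1.81 ± 0.11, adjusted p = 1.34e-10). In all 3 both Nrde2-KO libraries were at least 3-fold above both WT libraries. The mRNAs or lncRNAs of their host genes moved less, with log2 fold changes in Ribo-seq of 0.09 for Snhg6 (host of Snord87), 0.34 for Rpl13a (Snord34) and 0.53 for 2410006H16Rik (Snord49a).

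By class, 30 of the 37 Snord genes rose and 0 fell (median 1.18, with 21 called higher against 3.96% of all genes). In RNA-seq only 14 of the 37 were measured, with a median change of 0.06. The study made its RNA-seq libraries from total RNA, whereas Ribo-seq fragments were cut from a gel by size. The 2 assays thus need not sample the same snoRNA reads, and their difference does not tell how the amount of a snoRNA changed. The 33 Snord genes that lay within a single host gene had 26 hosts, of which 1 rose and 7 fell (median −0.08). Of the 13 box H/ACA RNAs (Snora) only 4 rose and 0 fell (median 0.09), as Snora21 did with 97.7 and 87.2 CPM in WT and 117 and 134 in Nrde2-KO (0.44, adjusted p = 0.000472). All 8 RNAs of the Cajal body (Scarna) rose (median 0.89), among them Scarna2 with 416 and 437 CPM in WT and 736 and 662 in Nrde2-KO (0.71, adjusted p = 5.71e-07). Snord11, the Snord gene with the most reads in WT, did not pass the test, with 111 and 106 CPM in WT and 112 and 117 in Nrde2-KO (0.08, adjusted p = 0.469). Whether the classes differ from each other was not tested. In all, 78 of 136 small nucleolar and Cajal body RNAs rose and 0 fell, and their share of the reads in genes was 0.410 and 0.398% in WT and 0.645 and 0.720% in Nrde2-KO. Among 107 spliceosomal snRNA genes, many of them near-identical copies whose reads cannot be assigned with certainty, 44 rose and 1 fell. The vault RNA Vaultrc5, a short cytoplasmic RNA, changed in the opposite direction, with 731 and 784 CPM in WT and 258 and 220 in Nrde2-KO (−1.67, adjusted p = 1.38e-11).

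Features of genes that the choice of members did not use were then set beside the ribosome occupancy of the 11380 nuclear coding genes, as a description with no test. The median change differed with the number of introns in Ribo-seq but hardly in RNA-seq. Genes with 0 to 4 introns had a median log2 fold change of 0.11, and those with 18 or more introns had −0.16, while the RNA-seq medians of these bins were both −0.06. Of the genes with 0 to 4 introns 1.67% were called lower, and of those with 18 or more 6.18%. Genes called lower had a median of 13 introns and genes called higher a median of 8, the same as all coding genes. Coding length went with the change as well, from a median of 0.13 in the shortest of 5 bins (up to 768 bases) to −0.11 in the longest (from 2577 bases), and there the RNA-seq medians ran the other way, from −0.11 to −0.03. Number of introns and coding length were not separated from each other.

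The match of a gene's weakest GT 5′SS to the consensus followed the same order. Genes whose weakest site had 3 or fewer matches had a median of −0.10 (286 genes), those with 4 had −0.10 (1337), those with 5 had −0.04 (6164), those with 6 had 0.05 (2781) and those with 7 or more had 0.16 (547). The share called lower was 4.55, 6.66, 3.16, 1.83 and 1.46% in these classes. Genes with many introns are more likely to hold a weak site by number alone, and the part of intron number in this order was not tested. Among the 12 coding genes of at least 5 normalized CPM with the largest decreases, the weakest site had 4 matches in 5 (Acap1, Ano9, Isyna1, Itpr3 and Wdr90), 5 in 3 (Lefty1, Msln and Oplah), 6 in 3 (Enox1, Lefty2 and Lin28a) and 7 in 1 (Trh). By GC content of the coding sequence, the share called lower rose from 1.19% in the lowest of 5 bins to 5.73% in the next to highest and 4.63% in the highest. The share called higher rose as well, with 1.27, 4.33 and 4.63% in the same bins. Their median log2 fold changes were −0.085, −0.008 and 0.057. Across chromosomes the medians lay between −0.09 (X) and 0.04 (9).

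A gap was also found for a hydrophobic stretch in the encoded protein, defined as any window of 19 residues with a mean Kyte-Doolittle hydropathy of at least 1.9, which is typical of signal anchors and transmembrane helices that direct ribosomes to the endoplasmic reticulum. This feature was chosen after the data had been seen. Of 2505 genes with such a stretch 38.4% rose and 11.6% fell (median 0.28), and of 8874 genes without one 12.7% rose and 26.3% fell (median −0.08). Called higher were 9.06% and 2.11%. In RNA-seq the medians were −0.02 and −0.07, so that the difference between the assays had a median of 0.29 with and −0.03 without a stretch. By library, the median deviation of genes with a stretch from the mean over the 4 libraries was −0.12 and −0.15 in WT and 0.13 and 0.14 in Nrde2-KO, and that of genes without one was 0.05 and 0.06 in WT and −0.05 and −0.04 in Nrde2-KO.

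The gap was present in each class of coding length and of level examined. In each of 5 bins of coding length the median was between 0.19 and 0.32 with a stretch and between −0.17 and 0.09 without. Genes under 5 CPM in WT had medians of 0.50 and 0.20, those of 5 to 20 CPM had 0.25 and −0.02, and those of 20 CPM or more had 0.18 and −0.22. A stretch was present in 54.8% of the coding genes called higher, in 16.7% of those called lower and in 22.0% of all. The 15 coding genes with the most footprints were taken by Nrde2-KO level for those called higher and by WT level for those called lower. A stretch was present in 9 of those called higher and in 4 of those called lower. Aqp3, Igf2r, Jam2, Man2a1, Sdc4 and Ctsd were among the 9, while the secreted ligand Nodal (highest window 1.06) and Glb1 (1.74) did not reach the threshold.

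**Figure D5:**
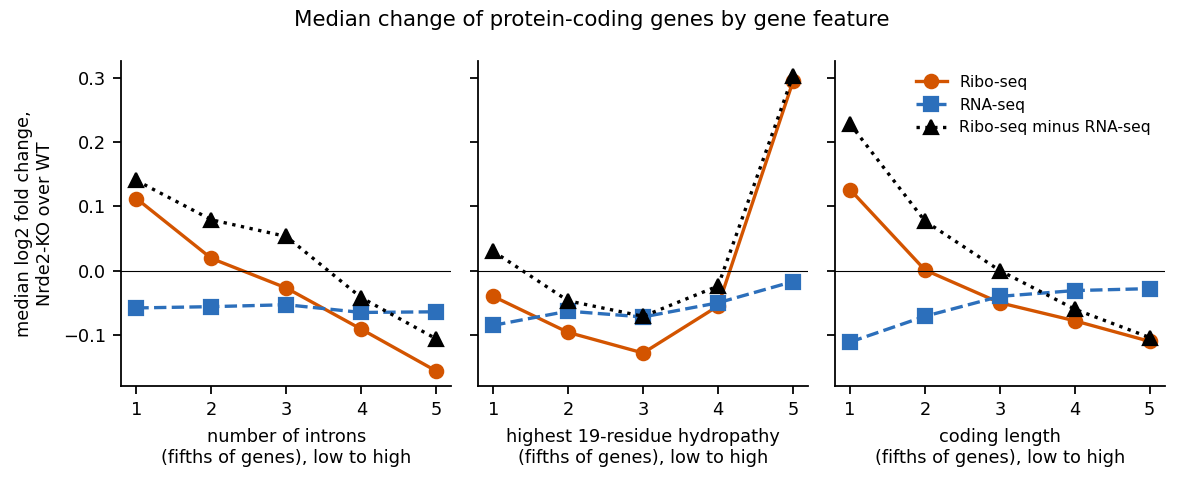
Median log2 fold change (Nrde2-KO over WT) of nuclear coding genes in 5 bins of intron number, of the highest 19-residue hydropathy and of coding length, for Ribo-seq (orange circles), RNA-seq (blue squares) and their difference (black triangles). Ribo-seq fell from 0.11 to −0.16 over the bins of intron number while RNA-seq stayed at about −0.06, and only the most hydrophobic bin lay well above 0 in Ribo-seq (0.29).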

How the data were processed

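Per the paper's methods, the authors trimmed Ribo-seq reads and collapsed duplicates, aligned reads to mm10 with STAR, counted unique reads on the correct strand per GENCODE M23 gene (featureCounts), and deposited CPM. The deposited CPM were multiples of 1 read (100% within 0.1 of a whole number), so reads were recovered and tested with edgeR (937 calls) and DESeq2 (563 calls) as alternatives. For each library, CPM over its size factor (median of ratios) plus 0.25 were put on the log2 scale and tested with limma 3.58.1 (R 4.3.3; trend, eBayes), two-sided, for genes of at least 1 CPM; 2 residual and 17.5 prior degrees of freedom supported each test. Fold changes of low genes are understated on this scale. The interaction fit used 8 libraries and genes of at least 1 CPM in both assays. Gene models came from GENCODE M21 (GRCm38), which lacks 181 genes, with 1 transcript per gene. Named genes were those targeted or described by the study, the 12 largest changes each way, up to 4 per list, the 6 largest differences between assays each way and the 5 most read; the 15 most-read called coding genes each way and 3 abundant snoRNAs were added after values were seen. Members and lists were chosen with earlier results of these data known. Scripts were tested on simulated data.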

Additional observations from a re-analysis of the deposited data

How the results depend on the processing

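With 2 libraries per group and few reads per gene near the limit, small changes of low genes were not detectable. Of 2781 values of single genes, 2668 kept their direction and side of an adjusted p of 0.05, 96 lost and 7 gained it, and 10 turned; of 370 list medians, 335 moved little, 33 moved and 2 turned. The cause was not tested where none is named. The 868 calls became 561 without a filter (268 higher, 293 lower), 567 at a mean of at least 5 CPM, which tests fewer genes, and 563 with DESeq2 (276 and 287); DESeq2 gave 2637 genes at an adjusted p below 0.05. Deposited CPM gave 75.1% of calls higher in place of 56.1%, and 68.7% in place of 45.8% at an adjusted p below 0.05. Leaving out 1 library gave 866 to 912 calls, 4259 to 4386 genes at an adjusted p below 0.05, 118 to 206 calls of the difference between the assays, and 125 to 136 genes that rose and 210 to 226 that fell in both assays. Calls of the difference were higher in 90.0% of cases with deposited CPM and in 66.7% with edgeR, in place of 80.6%. Genes called higher in RNA-seq that rose numbered 94 with the second RNA-seq experiment, and those called lower that fell 148 with deposited CPM. The coding length contrast was −0.30 over 10 bins in place of −0.24, and the hydrophobic gap 0.26 and 0.39 at thresholds of 1.6 and 2.2 in place of 0.36.

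Same-numbered libraries did not deviate together (r = −0.0304), so replicate numbers were not used to pair them; with a replicate block there were 946 calls, 5356 genes at an adjusted p below 0.05 and 176 calls of the difference.

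Direction turned with no filter for the median of mesoderm markers (−0.003) and of neural markers (0.036) relative to all genes, and with deposited CPM for mt-Rnr1 (0.085) and mt-Rnr2 (0.049). Leaving out 1 library turned the log2 fold change of 6 genes, over ranges of −0.29 to 0.298 for Eomes (below 0 without WT library 2 or Nrde2-KO library 2), −0.046 to 4.889 for Otx2 (below 0 without Nrde2-KO library 1), −0.204 to 0.082 for mt-Rnr1 (above 0 without WT library 1 or Nrde2-KO library 2), −0.246 to 0.05 for mt-Rnr2, −0.617 to 0.107 for Mir6236 and −0.382 to 0.039 for n-R5-8s1 (these 3 above 0 without Nrde2-KO library 2).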
